A study of Mus musculus with 54 samples.

Results

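*Malat1*, *Neat1*, *Meg3*, *Rian*, *Miat* and *Snhg11* are long noncoding RNAs (lncRNAs) of the brain, and their levels were followed in the suprachiasmatic nucleus (SCN), the hypothalamic pacemaker, over a light/dark cycle. They were taken by gene symbol, and all 6 were found among the 34990 genes of the deposited tables: *Malat1*, *Neat1*, *Meg3* and *Snhg11* in the table of read counts, *Rian* and *Miat* only in the table of normalized values, from which whole reads were recovered. The tissue came from male C3H/HeH mice of 10–12 weeks without any genetic change or drug, kept under 12 hr of light at 150 lux and 12 hr of dark and housed singly before harvest. Brains were taken at ZT2, ZT6 and ZT10 in the light and at ZT14, ZT18 and ZT22 in the dark, where ZT is the time in hr since lights on. The SCN was cut from stained sections with a laser and tissue of 5 mice was pooled into each of 3 replicates (A, B and C) per timepoint, so that a difference between single animals could not be seen. There was no constant-dark group, so a response to light and a free-running rhythm could not be told apart. In bulk tissue, fewer cells of a type and less RNA per cell cannot be told apart either.

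LncRNAs act as RNA, and most of these are retained in the nucleus. *Malat1* collects in nuclear speckles, where splicing factors of the SR family are stored, and *Neat1* is the scaffold around which paraspeckles form. *Meg3* and *Rian* are transcribed from the maternal chromosome of the imprinted Dlk1-Dio3 domain, whose paternal chromosome expresses *Dlk1* and *Rtl1*. *Rian* carries many C/D box snoRNAs within its locus. *Miat* (also called Gomafu) forms its own nuclear domains in neurons, and *Snhg11* is a host gene of small nucleolar RNAs.

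In GRCm38 coordinates of the GENCODE annotation, *Malat1* lies at chr19:5795690-5802672 and *Neat1* at chr19:5824708-5845478, both on the minus strand and each as 1 exon block. *Meg3* lies at chr12:109541001-109571726 and *Rian* at chr12:109603940-109661716, both on the plus strand. *Miat* lies at chr5:112213228-112229395 on the minus strand and *Snhg11* at chr2:158375638-158386145 on the plus strand. *Snhg11* is typed as protein coding in GENCODE and as lncRNA in RefSeq, and was kept as a lncRNA here. An antisense gene shares 453 exon bases with *Malat1* (*Gm37376*), 1228 with *Meg3* (*Gm26906*) and 2260 with *Miat* (*Gm26953*). The sources do not say that counting used strand, so reads of these stretches cannot be assigned to one strand, and none of the 3 antisense genes has a row in either table. *Rian* spans 18 small RNA genes, 13 of them snoRNAs, and the 14 that are listed in the normalized table hold 3717 reads over all libraries, against between 2725 and 13105 for *Rian* in each single library.

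Promoters (RefSeq, GRCm38.p6, 250 bases before to 50 after a start) are shown for *Malat1*, the only one of the 6 that passed the time test, and for *Meg3*, the only one with a full cAMP response element (CRE), a motif through which light-driven signals reach SCN genes. Capitals mark the CRE, TGACGTCA, and its shorter form TGACG (the core site), searched on both strands. A full CRE always contains a core site on each strand.
*Malat1*, chr19:5802623-5802922, minus strand: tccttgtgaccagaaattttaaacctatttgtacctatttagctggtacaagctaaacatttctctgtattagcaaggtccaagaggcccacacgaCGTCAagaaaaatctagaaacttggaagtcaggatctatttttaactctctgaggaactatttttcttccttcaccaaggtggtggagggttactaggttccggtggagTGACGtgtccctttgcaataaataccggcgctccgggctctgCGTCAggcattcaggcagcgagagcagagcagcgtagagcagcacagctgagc
*Meg3*, chr12:109540746-109541045, plus strand: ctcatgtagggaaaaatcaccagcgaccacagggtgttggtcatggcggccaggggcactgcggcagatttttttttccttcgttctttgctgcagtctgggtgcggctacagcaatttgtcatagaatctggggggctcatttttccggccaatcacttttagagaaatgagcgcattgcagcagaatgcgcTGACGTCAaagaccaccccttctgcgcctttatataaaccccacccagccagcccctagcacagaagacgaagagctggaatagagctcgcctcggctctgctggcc

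The *Meg3* promoter held 1 CRE, at position -57 from the start, and 1.79% of 32851 promoters of the same length hold one. The *Malat1* promoter held 3 core sites, at -154, -45 and -3, and 20.8% of promoters hold at least 1. Neither motif was found in the windows of *Rian*, *Miat* and *Snhg11*, nor in a second *Meg3* window, and *Neat1* had no entry. The clock-related E-box CACGTG (in 7.15% of promoters) and D-box TTATGTAA (in 0.938%) were in none of these windows. These are matches of letters only, and binding was not measured.

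Levels are in CPM, the reads of a gene scaled to a fixed library total after TMM normalization, and errors are SDs over the n = 3 replicates of a timepoint unless stated. Where replicates of 2 timepoints are said not to overlap, this describes 3 values against 3. The share of all genes without overlap was not determined, so it is not a result about the lncRNA. Between 15412981 and 35820945 reads were counted per replicate. The labels name no sequencing batch, but the study's plot of principal components, whose legend names timepoint and sequencing batch, shows 3 clusters of libraries. One holds ZT22 and ZT2, another ZT6 and ZT10, and the last ZT14 and ZT18. Differences across clusters therefore cannot be told apart from a batch, and only ZT22 against ZT2, ZT10 against ZT6 and ZT14 against ZT18 lie within one. The paper itself holds batch effects to be minimal, since most key clock genes peaked when expected. It also reports high concordance of qPCR with the sequencing for most genes surveyed. Markers of the SCN were present in every library, with a summed level of 10 genes between 1634 and 5883 CPM and none at 0. Oligodendrocyte markers (8 genes, none at 0) ranged from 1315 to 6138 CPM and astrocyte markers from 2181 to 5267 CPM. Markers of telencephalic excitatory neurons reached at most 230 CPM.

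The 6 lncRNAs spanned a wide range of levels. Per kb of exon, with all values from the normalized table, *Malat1* was highest at 556 ± 272 CPM per kb (SD over 18 libraries), followed by *Snhg11* at 117 ± 73.6, *Meg3* at 35.8 ± 20.2, *Rian* at 15.3 ± 4.90, *Miat* at 2.46 ± 1.68 and *Neat1* at 0.676 ± 0.368. Each was above the next in all 18 libraries, except that *Meg3* exceeded *Rian* in 16 of 18. The place of *Meg3* above *Rian* depends on the table. From the read counts the mean of *Meg3* was 8.01 CPM per kb, below that of *Rian*. By mean CPM, without regard to length, *Malat1* ranked 9 and *Snhg11* 80 among the 18941 genes tested in the count table, whereas *Neat1* ranked 8569, and *Miat* ranked 7201 among the 20822 genes tested in the normalized table. *Miat* and *Neat1* were thus not among the abundant RNAs of these libraries, and bulk tissue cannot show whether any of the 6 came from neurons. Lengths are unions of all annotated exons, so a gene whose long isoform was little used is understated.

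*Meg3* was the 1 gene of the set whose reads depended on the table. Its count column held between 966 and 9387 reads per replicate, and the normalized table held 3.63 to 6.56 times as many, with a median of 4.43. For *Malat1*, *Neat1* and *Snhg11* the same ratio had a median of 1 and never fell below 0.872. *Meg3* is therefore given from the counts, and the value from the recovered reads is added where it differs.

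Of the 6 lncRNAs, only *Malat1* changed over the 6 timepoints (edgeR quasi-likelihood F-test, q under 0.05), and it also passed JTK_CYCLE, a rank test for a 24 hr rhythm. The same calls were made for 44.0% and 34.6% of all genes of the count table, and for 45.0% and 35.4% of those of the normalized table. Among genes with a mean of at least 50 CPM, 78.9% changed over time. *Rian* came nearest of the others, with a time-test q of 0.058 and a JTK_CYCLE p of 0.0089.

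**Figure D1:**
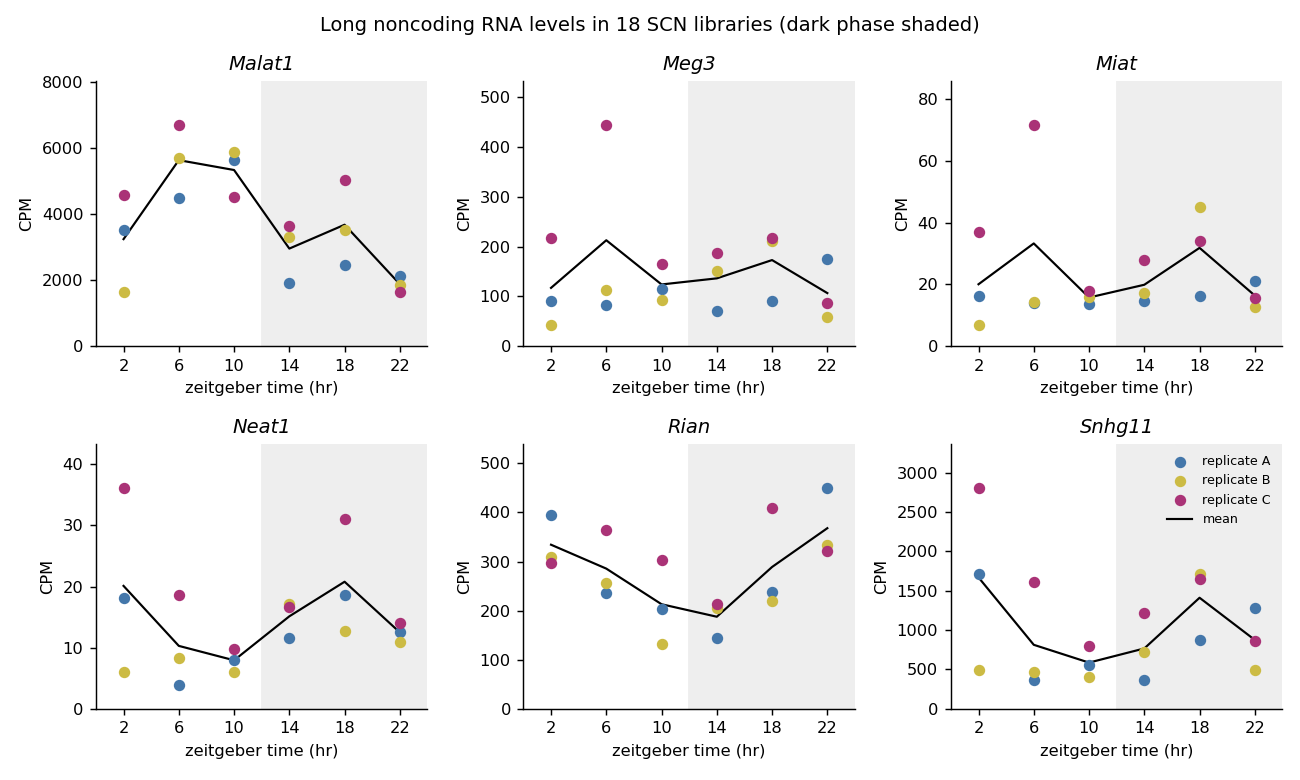
CPM (linear axes from 0) of the 6 lncRNAs against zeitgeber time in hr, with 1 point per replicate, the mean as a line and the dark phase shaded. All 3 *Malat1* libraries of ZT22 lie below all 6 of ZT6 and ZT10, whereas replicate C of ZT2 and of ZT6 stands above its partners for *Meg3*, *Miat* and *Neat1*.

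*Malat1* was high in the middle of the light phase and low at the end of the night. Its level was 3511, 1635 and 4582 CPM at ZT2 (replicates A, B and C), 4499, 5718 and 6697 CPM at ZT6, and 5635, 5870 and 4511 CPM at ZT10. In the dark it was 1925, 3317 and 3627 CPM at ZT14, 2461, 3529 and 5049 CPM at ZT18, and 2122, 1866 and 1642 CPM at ZT22. The 6 libraries of ZT6 and ZT10 lay above all of ZT14 and ZT22, and only ZT18 replicate C and ZT2 replicate C reached into their range. The mean fell from 5638 ± 1101 CPM at ZT6 to 1877 ± 240 CPM at ZT22, a ratio of 3.00. The time test gave q = 0.0056 (edgeR), and the exact null of JTK_CYCLE gave p = 0.016 with the best lag at ZT10.

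Over the 3 dark timepoints *Malat1* was lower than over the 3 light timepoints by 0.75 on the log2 scale (log2 difference -0.75, SE 0.19, edgeR q = 0.0071), with a 95% interval from -1.14 to -0.36. The median of this difference over all genes of the count table was 0.13. The groups of 9 libraries overlapped. It was the only one of the 6 lncRNAs with q under 0.05 in this comparison, which called 23.8% of the genes of the count table and 27.4% of those of the normalized table. Among genes with a mean of at least 50 CPM, as *Malat1* has, it called 46.1% and 46.0%. The step from ZT18 to ZT22 was also called (log2 difference -0.97, SE 0.32, q = 0.045), and the replicates did not overlap. That comparison called 18.1% and 16.8% of genes in the 2 tables, and the *Malat1* call was lost when any of 11 of the 18 libraries was left out. The step from ZT10 to ZT14, across lights off, was of like size (-0.85, SE 0.32, q = 0.081) without overlap of the replicates and without passing the test. From the recovered reads it passed (-1.09, q = 0.026), as did ZT6 against ZT2 (1.02, q = 0.020, against 0.80 and q = 0.066 from the counts). Of the genes of the normalized table with a mean of at least 50 CPM, ZT14 against ZT10 called 38.6%.

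Within the clusters of libraries no difference of *Malat1* was called. It was -0.08 (SE 0.32, q = 0.96) for ZT10 against ZT6 and -0.32 (SE 0.32, q = 0.76) for ZT14 against ZT18. For ZT22 against ZT2 it was -0.79 (SE 0.32), with an unadjusted p of 0.025 and a q of 1. The ZT6 and ZT10 libraries, with much *Malat1*, also had high mitochondrial shares (6.57% to 10.3%, against 2.75% to 6.86% elsewhere). Their SCN neuron markers were high (4434 to 5883 CPM, against 1634 to 4681 CPM elsewhere). Oligodendrocyte markers were at 1315 to 3105 CPM there, below the 4797 to 6138 CPM of ZT14 and ZT18. ZT2, at 2186 to 4476 CPM, overlapped that range of ZT6 and ZT10. Of the markers themselves, 9 of 10 for SCN neurons and 8 of 8 for oligodendrocytes changed over time. In these sums, cell content and expression per cell therefore cannot be told apart. The ZT6 and ZT10 libraries are also those for which fewer genes had identical reads in both tables, between 36.8% and 47.1% against at least 94.7% elsewhere. The part of these measures in the *Malat1* difference was not tested. At ZT22, where *Malat1* was lowest, oligodendrocyte markers were between 2251 and 3037 CPM.

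**Figure D2:**
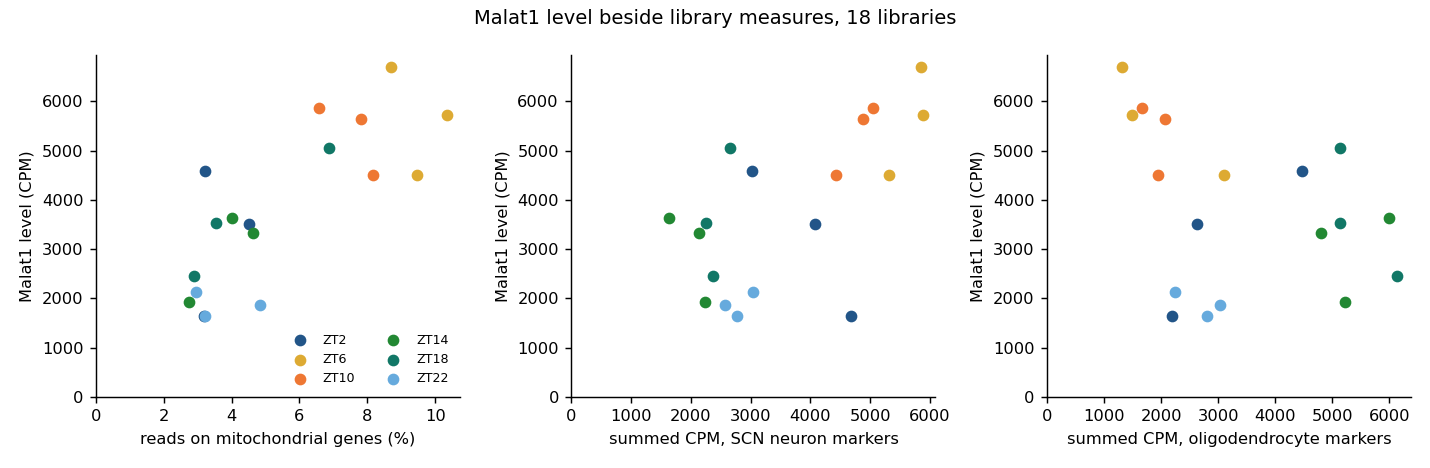
*Malat1* level in CPM against the share of reads on mitochondrial genes (%), the summed CPM of 10 SCN neuron markers and the summed CPM of 8 oligodendrocyte markers, with 1 point per library coloured by timepoint. The ZT6 and ZT10 libraries form a group with high *Malat1*, mitochondrial share and SCN markers, while ZT22 has the lowest *Malat1* at an intermediate level of oligodendrocyte markers.

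*Neat1*, the neighbour of *Malat1*, was far less abundant and had its lowest means at ZT6 and ZT10, where those of *Malat1* were highest. It stood at 18.2, 5.98 and 36.1 CPM at ZT2, 3.95, 8.38 and 18.5 CPM at ZT6, and 7.91, 6.03 and 9.86 CPM at ZT10. In the dark it stood at 11.5, 17.2 and 16.7 CPM at ZT14, 18.6, 12.8 and 31.0 CPM at ZT18, and 12.6, 10.9 and 14.0 CPM at ZT22. The ZT14 replicates lay above those of ZT10 without overlap, but the difference was not called (log2 difference 0.93, edgeR q = 0.28). ZT2 spanned almost the whole range. The highest mean, 20.8 ± 9.31 CPM at ZT18, was 2.62 times the lowest, 7.93 ± 1.92 CPM at ZT10, and the time test gave q = 0.21. Dark exceeded light by 0.42 on the log2 scale (95% interval -0.25 to 1.08, q = 0.37). With ZT2 replicate C and ZT6 replicate C left out together, a choice made after seeing the data, this difference was 0.87 with q = 0.035. Those 2 libraries hold the highest *Neat1* levels of the light phase. Leaving them out must raise the difference, so this q gives no support for it. Without ZT6 replicate C alone, the highest of its timepoint, ZT6 lay below ZT2 by a log2 difference of -1.71 with q = 0.035. With all libraries it was -0.97 with q = 0.19, and leaving out any of the other 17 libraries did not change that call. These values rest on 91 to 938 reads per library.

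*Meg3* did not pass any test over time. Its level was 91.4, 41.6 and 218 CPM at ZT2, 81.9, 112 and 444 CPM at ZT6, and 114, 93.1 and 165 CPM at ZT10. In the dark it was 70.9, 151 and 187 CPM at ZT14, 89.9, 211 and 218 CPM at ZT18, and 175, 58.8 and 86.0 CPM at ZT22. No 2 neighbouring timepoints were separated, and ZT6 replicate C alone set the highest mean. The ratio of the highest to the lowest timepoint mean was 2.00, with a time-test q of 0.66 from the counts and 0.25 from the recovered reads. The dark minus light difference was -0.10 from the counts (95% interval -0.86 to 0.66, q = 0.88) and -0.49 from the recovered reads (95% interval -1.10 to 0.11, q = 0.21).

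*Rian*, from the same domain, had a tighter spread between replicates. It stood at 395, 310 and 298 CPM at ZT2, 237, 256 and 364 CPM at ZT6, and 203, 132 and 303 CPM at ZT10. In the dark it stood at 145, 205 and 213 CPM at ZT14, 238, 220 and 408 CPM at ZT18, and 450, 333 and 321 CPM at ZT22. All ZT22 and ZT2 libraries lay above all ZT14 libraries. The mean was 368 ± 71.3 CPM at ZT22 and 188 ± 37.1 CPM at ZT14, a ratio of 1.96, and JTK_CYCLE placed its best lag at ZT22. The time-test q of 0.058 was on the other side of 0.05 under 7 of 8 alternatives, and lowest, at 0.00082, when genes with few reads were kept. Of these 7, 1 left out ZT2 replicate C and ZT6 replicate C together, a choice made after seeing the data. With single libraries left out, q was under 0.05 without ZT10 replicate C (0.017), ZT18 replicate C (0.024) or ZT6 replicate C (0.046). For the other 15 of 18 libraries it stayed above 0.05, at up to 0.14. Within a cluster of libraries, ZT14 lay below ZT18 without overlap (log2 difference -0.62, SE 0.29, unadjusted p = 0.044, q = 0.37), in a comparison that called 0.514% of the genes of the normalized table. The dark minus light difference of *Rian* was -0.01, with a 95% interval from -0.36 to 0.34.

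*Miat* stood at 16.3, 6.97 and 36.9 CPM at ZT2, 14.0, 14.3 and 71.6 CPM at ZT6, and 13.5, 16.04 and 17.7 CPM at ZT10. In the dark it stood at 14.5, 17.2 and 27.9 CPM at ZT14, 16.2, 45.3 and 34.2 CPM at ZT18, and 21.1, 12.5 and 15.5 CPM at ZT22. Its highest library, ZT6 replicate C, held 5.12 times the level of the lowest of the same timepoint. The time test gave q = 0.39 and the dark minus light difference was -0.01 (95% interval -0.73 to 0.71).

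*Snhg11* was the second most abundant of the set and had the largest spread between replicates after *Meg3*, or the largest of all where *Meg3* is taken from the recovered reads. Its level was 1708, 494 and 2808 CPM at ZT2, 362, 467 and 1611 CPM at ZT6, and 552, 410 and 799 CPM at ZT10. In the dark it was 366, 721 and 1214 CPM at ZT14, 880, 1709 and 1646 CPM at ZT18, and 1275, 490 and 860 CPM at ZT22. Every timepoint overlapped with its neighbours. The mean was 1670 ± 1157 CPM at ZT2 and 587 ± 197 CPM at ZT10 (time-test q = 0.22), and dark and light differed by 0.08 (95% interval -0.64 to 0.81). Without ZT6 replicate C the time-test q was 0.047 and ZT6 lay below ZT2 by a log2 difference of -2.01 with q = 0.021, against -1.04 and q = 0.19 with all libraries. The call for *Snhg11* therefore rests on whether that library is used.

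**Figure D3:**
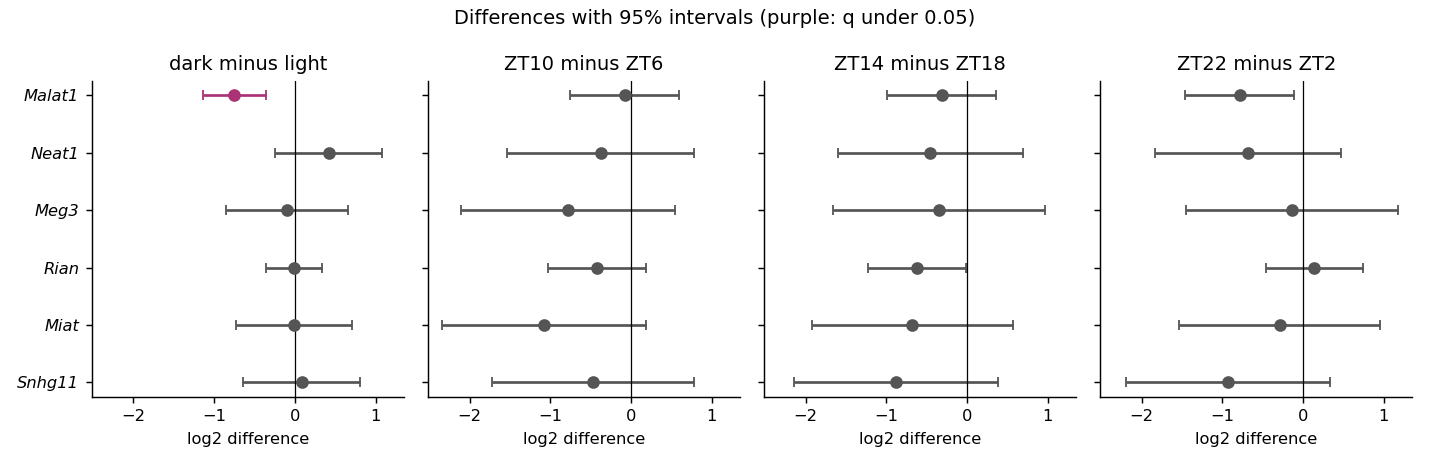
Log2 differences of the 6 lncRNAs with 95% intervals from the edgeR fit, for dark against light (9 libraries each) and for the 3 comparisons within clusters of libraries (3 against 3). Purple marks q under 0.05, which only *Malat1* reached in dark against light, and the widest intervals belong to *Meg3*, *Miat* and *Snhg11*.

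In the comparisons within clusters none of the 6 lncRNAs was called by edgeR or by DESeq2. ZT10 against ZT6 called 0.0475% and 0.0528% of genes in the count and normalized tables, ZT14 against ZT18 0.570% and 0.514%, and ZT22 against ZT2 0.0317% and 0.0288%. At an unadjusted p under 0.05 there were 0, 1 (*Rian*) and 1 (*Malat1*) of 6, beside 10.8%, 13.5% and 3.59% of the genes of the count table and 11.2%, 12.9% and 3.36% of those of the normalized table. The fitted difference was below 0 for all 6 in ZT10 minus ZT6 and in ZT14 minus ZT18, which also held for 46.2% and 49.3% of the genes of the count table. The first of these signs rests on 1 library, since without ZT6 replicate C the difference ZT10 minus ZT6 was above 0 for 5 of them, from 0.06 for *Malat1* to 0.50 for *Snhg11*, and below 0 only for *Rian* (-0.21). ZT6 against ZT2 called 0 of 6 (33.8% and 34.7% of genes) and ZT14 against ZT10 called 0 of 6 (16.8% and 18.3% of genes), each with 1 of 6, *Malat1*, at an unadjusted p under 0.05, as had 43.7% and 30.1% of the genes of the count table. DESeq2 called 0 and 1 of 6 in these 2 comparisons.

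The replicates of one timepoint differed more for most of these lncRNAs than for other genes. The SD between replicates of one timepoint, on the log2 scale, was 0.91 for *Meg3* (0.74 from the recovered reads), 0.89 for *Snhg11* and 0.77 for *Neat1*, larger than for 94.0%, 93.5% and 90.5% of the 11186 genes of the count table with a mean of at least 5 CPM, whose median was 0.36. *Miat*, at 0.84, exceeded 92.1% of 11713 genes of the normalized table, and *Rian*, at 0.39, exceeded 54.6%. *Malat1* had an SD of 0.46 and exceeded 67.8% in the count table. Between 32.3% (*Malat1*) and 85.3% (*Meg3*) of the variance over the 18 libraries lay within timepoints.

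The deviations were shared. In 26 of the 36 combinations of lncRNA and timepoint the highest library was replicate C, although letters do not mark a known batch. These combinations come from the same 18 libraries and are not independent. How often replicate C is highest over all genes was not determined, so the count is not a trait shown for these lncRNAs. At ZT2, replicate C was highest and replicate B lowest for all of them but *Rian*, and at ZT6 replicate C was highest and replicate A lowest for all 6. After the timepoint means were removed, *Meg3* and *Snhg11* correlated at r = 0.97 (Spearman rho = 0.96, exact permutation within timepoints, two-sided, n = 18, p = 4.29e-05, adjusted p = 0.00064 for both over the 15 pairs). *Meg3* with *Miat* gave r = 0.94 (rho = 0.94) and *Miat* with *Snhg11* r = 0.92 (rho = 0.92), each with an exact permutation p for r, adjusted over 15 pairs, of 0.00086. Without ZT2 replicate C and ZT6 replicate C, which are the 2 farthest from the median for *Meg3*, the 3 values were 0.96, 0.90 and 0.89. These points share library, depth and scaling.

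Neighbouring genes were compared in the same way. *Meg3* and *Rian* gave r = 0.56 (rho = 0.59), with an exact permutation p of 0.015 for r and 0.018 for rho (two-sided, n = 18, both unchanged after adjustment over the 2 neighbouring pairs), and the same sign in 14 of 18 libraries. Without the 2 libraries farthest from the *Meg3* median r was 0.64. *Malat1* and *Neat1* gave r = 0.74 (rho = 0.73), with exact permutation p of 0.013 and 0.014, adjusted to 0.015 and 0.018, and the same sign in 13 of 18. Without ZT2 replicate B and ZT14 replicate A, the farthest for *Malat1*, r was 0.62. Pairs on different chromosomes reached larger values than either, as given above for *Meg3* with *Snhg11*. The lowest of the 15 was *Miat* with *Rian* (r = 0.36, rho = 0.37, exact permutation p adjusted over 15 pairs of 0.16 and 0.18).

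**Figure D4:**
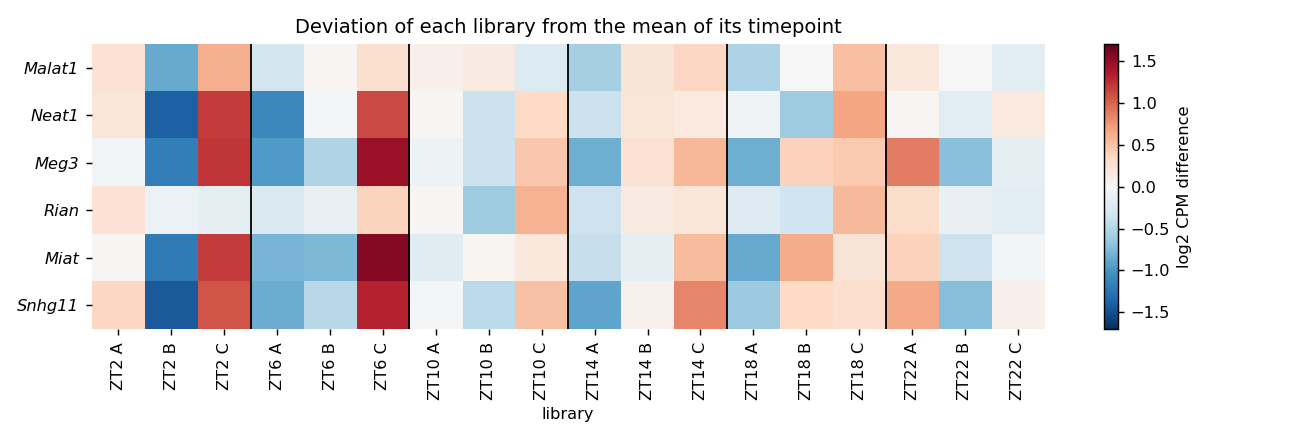
Deviation of log2 CPM from the timepoint mean for each lncRNA (rows) in each of the 18 libraries (columns, grouped by timepoint), from blue (below the mean) to red (above it). ZT2 replicate C and ZT6 replicate C are red for *Neat1*, *Meg3*, *Miat* and *Snhg11* together, ZT2 replicate B is blue for the same genes, and *Rian* is pale in these 2 timepoints but has the strongest colours of the 6 in ZT10 replicates B and C.

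The same deviations were set against 11 library measures, namely the 7 summed marker lists, the mitochondrial share, the share of the 10 highest genes, the count total and the number of genes detected. Of these 66 relations 1 passed the adjustment: *Rian* was lower in the deeper libraries of a timepoint (r = -0.72, rho = -0.80, exact permutation, two-sided, n = 18, adjusted p = 0.041 and 0.017), and r was -0.67 without the 2 libraries farthest from the median total. For *Meg3*, *Miat*, *Neat1* and *Snhg11*, each taken alone, none of the 11 measures passed. The largest values they had in common were with the endothelial markers, at r of -0.67, -0.62, -0.54 and -0.56 (rho of -0.64, -0.57, -0.46 and -0.62, adjusted exact permutation p between 0.55 and 0.64), and without the 2 libraries farthest from the median of that measure r was -0.78, -0.69, -0.59 and -0.73. With the microglial markers r was -0.64, -0.60, -0.56 and -0.52 (rho of -0.47, -0.41, -0.36 and -0.32, adjusted exact permutation p between 0.55 and 0.64), and -0.37, -0.23, -0.12 and -0.18 without the 2 farthest. ZT6 replicate C had the lowest endothelial and microglial sums of all libraries, 141 and 120 CPM, and ZT2 replicate C the lowest endothelial sum of its timepoint, 161 CPM. The part of these markers in the deviations was not tested. The oligodendrocyte sum was 4476 CPM in ZT2 replicate C, above its partners, but 1315 CPM in ZT6 replicate C, below its partners.

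Genes related to these lncRNAs were counted in fixed lists, and the counts are to be read beside the 44.0% of all genes, and the 78.9% of genes with a mean of at least 50 CPM, that changed over time. In the count table, 21.0% of all changed genes were highest at ZT6 and 20.46% at ZT2. In the Dlk1-Dio3 domain, 2 of 5 measured neighbours changed over time and both were highest at ZT6. *Dlk1*, the paternally expressed Notch-like ligand, fell from 922 ± 145 CPM at ZT6 to 237 ± 6.69 CPM at ZT22 (edgeR q = 4.7e-07). *Begain*, which encodes a postsynaptic density protein, fell from 45.0 ± 9.10 CPM at ZT6 to 10.3 ± 1.83 CPM at ZT2 (q = 1.8e-06). The maternally expressed *Mirg* and the paternally expressed *Rtl1* did not pass (q = 0.33 and 0.15), nor did *Dio3*, which stood at 0.101 ± 0.111 CPM at its highest timepoint.

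Of the genes for paraspeckle proteins, which assemble on *Neat1*, 13 of 16 changed (10 of the 16 had a mean of at least 50 CPM), 6 with their highest mean at ZT6 and 4 at ZT2. *Hnrnpa1*, an RNA-binding protein of splicing, ranged from 181 ± 38.9 CPM at ZT6 to 42.4 ± 5.35 CPM at ZT14 (q = 7.0e-07), and *Smarca4*, the ATPase of a chromatin remodeller, from 113 ± 17.8 CPM at ZT14 to 25.2 ± 5.72 CPM at ZT2 (q = 2.4e-06). *Nono*, a core paraspeckle protein, ranged from 531 ± 80.3 CPM at ZT2 to 178 ± 48.7 CPM at ZT6 (q = 1.0e-05). Of the genes for speckle and SR proteins, which share the compartment of *Malat1*, 13 of 18 changed (13 of the 18 had a mean of at least 50 CPM), again with 6 highest at ZT6. The leading ones were the branch-point binding factor *Sf1* (94.2 ± 21.3 CPM at ZT6, 28.6 ± 2.64 CPM at ZT2, q = 8.0e-07), and the splicing factors *Srsf7* (343 ± 33.0 CPM at ZT2, 136 ± 32.0 CPM at ZT6, q = 1.5e-05) and *Srsf10* (124 ± 5.30 CPM at ZT18, 50.5 ± 4.24 CPM at ZT22, q = 1.9e-05). Their highest timepoints thus differed from one gene to the next.

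Of the 7 genes of Polycomb repressive complex 2 (PRC2), to which *Meg3* has been reported to bind, 3 changed, a share near that of all genes. These were the methyltransferase *Ezh1* (162 ± 29.9 CPM at ZT2, 27.1 ± 9.84 CPM at ZT6, q = 1.7e-06) and the histone-binding subunits *Rbbp7* (q = 5.8e-05) and *Rbbp4* (q = 0.026). Of 10 measured snoRNA host genes other than *Snhg11*, 7 changed and all 7 had their highest mean at ZT6, as had *Malat1*. Only 2 of the 10 had a mean of at least 50 CPM. Apart from *Gas5* and *Zfas1*, the ZT6 replicates of these 7 were widely spread. They stood at 32.7 ± 17.7 CPM for *Snhg3*, 24.2 ± 21.6 CPM for *Snhg9*, 63.6 ± 33.5 CPM for *Snhg12* and 18.6 ± 15.7 CPM for *Snhg15*, with *Snhg20* given below. Whether the peak at ZT6 rests on a single library was not tested. *Snhg11* did not pass the time test, and its difference from these hosts was not tested. *Gas5* was at 634 ± 47.4 CPM at ZT6 and 195 ± 38.2 CPM at ZT14 (q = 6.8e-06), *Snhg20* at 31.4 ± 19.8 CPM and, at ZT22, 3.42 ± 0.841 CPM (q = 1.8e-05), and *Zfas1* at 160 ± 41.0 CPM and, at ZT14, 43.1 ± 8.82 CPM (q = 6.7e-05). The median dark minus light difference of the 10 was -0.67, against 0.13 over all genes of the count table and 0.21 over those of the normalized table.

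Of 15 other lncRNAs of the brain that could be tested, 5 changed, and 4 of the 15 were higher in the dark with q under 0.05 and none in the light, where 14.3% and 9.56% of all genes of the count table, and 17.5% and 9.93% of those of the normalized table, were higher and lower in the dark. *Tug1*, a widely expressed lncRNA, ranged from 875 ± 102 CPM at ZT2 to 114 ± 25.8 CPM at ZT10 (q = 1.1e-07), a ratio of 7.65. *1700020I14Rik* was highest at ZT14 with 165 ± 31.0 CPM (q = 0.00035), and *Dlx6os1*, next to the interneuron gene *Dlx6*, was highest at ZT22 with 18.8 ± 1.40 CPM (q = 0.016). *Malat1*, with its highest mean at ZT6 and 0.75 lower in the dark on the log2 scale (log2 difference -0.75), differed from these 3 in direction.

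**Figure D5:**
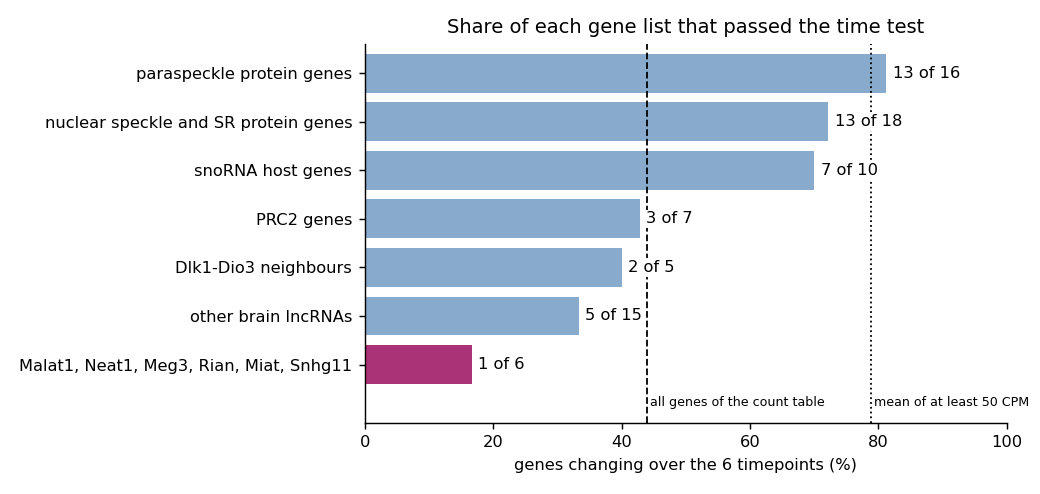
Share of the genes of each list that passed the time test (edgeR q under 0.05), with the count beside each bar and the share over all genes of the count table, 44.0%, as a dashed line. A dotted line marks the share among genes with a mean of at least 50 CPM, 78.9%. The 6 lncRNAs (1 of 6) stand below both lines, and the lists of paraspeckle, speckle and snoRNA host genes lie above the first and near or below the second.

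For each lncRNA the 2 genes with the most similar course over the 18 libraries were taken from 16960 genes with a mean of at least 10 reads, as a description without a test. For *Meg3* and for *Miat* the closest was *Wsb1*, which encodes a substrate receptor of a ubiquitin ligase (r = 0.93 and 0.86). It remained close after the timepoint means were removed (r = 0.95 and 0.93). The second were *Gm12940* for *Meg3* (r = 0.89) and *Tia1*, an RNA-binding protein of stress granules, for *Miat* (r = 0.84). *Malat1* lay closest to *Rn7sk*, the small nuclear 7SK RNA (r = 0.90), and *P3h3* (r = 0.89), with r of 0.60 and 0.71 once the timepoint means were removed. *Neat1* lay closest to *Gm26909* and *Stxbp2* (r = 0.89 and 0.88), *Rian* to *Xlr3b* and *Nqo2* (r = 0.85 and 0.84) and *Snhg11* to *4930447C04Rik* and *Slc2a4rg-ps* (r = 0.90 and 0.86). The points are libraries that share depth, scaling and timepoint.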

How the data were processed

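RNA of laser-captured SCN was measured in 18 replicates, each sequenced on 3 lanes (54 lane samples). Per the labels, RNA with a RIN over 8 was amplified from about 1 ng (SMARTer) and read over 100 bases. The authors aligned with GSNAP to mm10 and counted with HTSeq 0.5.4p1. They deposited raw read counts for 30031 genes, lanes combined, and a normalized signal for 31077 genes, the counts divided by a size factor per library (DESeq2). All values of that signal (100%) were whole multiples of one step within 0.01 reads, so reads were recovered for *Rian* and *Miat*. No sample column was unused (0).

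The genes and lists were chosen with earlier results of these data known. The filter required 1 read or more in over 6 replicates. What passed was fitted with edgeR 4.0.16 (R 4.3.3, TMM, quasi-likelihood, 1 mean per timepoint) separately for each table, with Benjamini-Hochberg q over all genes and a threshold of 0.05. Genes in the count table were taken from its fit, and others from the fit to recovered reads. SEs are the log2 difference divided by the square root of F. JTK_CYCLE (24 hr, 6 lags, exact null, Bonferroni over lags) was coded anew (Python 3.11.15, pandas 2.3.3, scipy 1.17.1, numpy 2.4.6). Exact permutations within timepoints used all 46656 orders of log2 CPM (prior count 2). DESeq2 1.42.0 and limma 3.58.1 (cosinor) were alternatives. The code was tested on simulated data. Lengths, positions and symbols come from GENCODE M21. Besides the 6 lncRNAs, named genes are up to 3 per list with the smallest q, 2 per lncRNA with the highest r, and overlapping antisense genes. *Mirg*, *Dio3*, *Dlx6*, *Snhg3*, *Snhg9*, *Snhg12* and *Snhg15* were named after their values were seen. The 3 replicates of a timepoint are separate pools of mice, and the 3 lanes of a replicate share its pool.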

Additional observations from a re-analysis of the deposited data

How the results depend on the processing

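The number of lncRNAs changing over time was 1 and rose to 2, with *Rian* added, under DESeq2, DESeq2's size factors, upper-quartile normalization, no filter, at least 10 counts in every replicate and the replicate block, and with ZT2 C and ZT6 C left out together, a choice made after seeing the data. The number called cycling was 1 and rose to 2 under the same 7. Leaving out each replicate gave 1 to 3 changing and 1 to 2 cycling. The count for ZT6 minus ZT2 was 0 and became 1 with at least 10 counts and with recovered reads (0 to 2 over replicates left out). For ZT14 minus ZT10 it was 0 and became 1 under DESeq2, no filter, upper-quartile normalization, recovered reads and without ZT2 C and ZT6 C (0 to 1). For ZT22 minus ZT18 it was 1 and became 0 under DESeq2's size factors, scaling to 9 of the 10 reference genes, upper-quartile normalization and the replicate block (0 to 1). For dark minus light it was 1 and became 2 without ZT2 C and ZT6 C. Other brain lncRNAs changing numbered 5, and 8 under DESeq2, no filter and at least 10 counts (4 to 7 over replicates left out). The cause of these changes was not tested. The *Malat1* time call and its dark minus light call held under every alternative run, with q up to 0.023 and 0.026. Over all genes of the count table DESeq2 called 246 genes against 9 for ZT10 minus ZT6, 842 against 108 for ZT14 minus ZT18 and 34 against 6 for ZT22 minus ZT2.

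Differences that were never called changed sign under other settings. For *Meg3*, ZT14 minus ZT10 became -0.0058 under upper-quartile normalization and -0.46 with recovered reads, and ZT22 minus ZT2 and dark minus light became 0.18 and 0.10 under the replicate block. Dark minus light became 0.016, 0.068 and 0.16 for *Miat* and 0.018, 0.10 and 0.0013 for *Rian* with at least 10 counts, scaling to the reference genes and the replicate block. For *Snhg11* it became -0.012 under upper-quartile normalization and -0.044 with recovered reads. Without ZT2 C and ZT6 C, ZT10 minus ZT6 became 0.35 for *Meg3*, 0.057 for *Malat1*, 0.36 for *Neat1*, 0.15 for *Miat* and 0.50 for *Snhg11*, ZT22 minus ZT2 became 0.64 for *Meg3*, 0.0079 for *Neat1* and 0.44 for *Miat*, and dark minus light became 0.51 for *Meg3* and 0.62 for *Miat*. Leaving out each replicate, the *Meg3* differences ranged from -0.27 to 1.64 (ZT6 minus ZT2), -1.17 to 0.35 (ZT10 minus ZT6), -0.16 to 0.45 (ZT14 minus ZT10), -0.69 to 0.64 (ZT22 minus ZT2) and -0.29 to 0.28 (dark minus light). Those of *Miat* ranged from -0.51 to 1.49 (ZT6 minus ZT2), -1.45 to 0.16 (ZT10 minus ZT6), -0.70 to 0.44 (ZT22 minus ZT2) and -0.14 to 0.41 (dark minus light). Those of *Rian* ranged from -0.43 to 0.16 (ZT14 minus ZT10), -0.033 to 0.27 (ZT22 minus ZT2) and -0.12 to 0.10 (dark minus light), and those of *Snhg11* from -0.82 to 0.50 (ZT10 minus ZT6), -0.11 to 0.72 (ZT14 minus ZT10) and -0.083 to 0.41 (dark minus light). ZT10 minus ZT6 ranged from -0.22 to 0.063 for *Malat1* and from -0.76 to 0.36 for *Neat1*, and ZT22 minus ZT2 of *Neat1* from -1.12 to 0.0076.

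Over genes averaging 10 counts or more, same-lettered replicates did not deviate together (median r of -0.0030 over 45 pairs, 1 above 0.1), so the letters were not taken to pair the samples. For the 6 lncRNAs themselves replicate C was the highest in 26 of 36 combinations with timepoint, which are not independent. With the letter as a block the *Rian* time-test q was 0.031 in place of 0.058. With the replicate block 2 lncRNAs changed over time. With 3 replicates, a change of the size seen for *Meg3* or *Snhg11* is within the spread between pools.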
